A study of Mus musculus with 4 samples.

Results

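Interferon-stimulated genes and the receptors and transcription factors that control them were examined in fibroblasts from mouse mammary tumours. The set held 54 listed genes out of 22456 in the deposited table, matched by symbol, and all 54 passed the filter on low values (a mean over the 4 libraries of at least the log2 of 10), as did 14551 genes in all. The members nearest that filter were Cmpk2, at a mean of 6.13, and Oas3, at 6.81, and none lay outside it. The tumours grew in Balb/cAnN mice from 4T1 cells, a mammary carcinoma line, and were taken 8 days after injection into the fat pad. In the GSK group (2 libraries) the 4T1 cells had been cultured before injection for 5 days with 5 µM GSK269962A, and in the DMSO group (2 libraries) with the solvent. The fibroblasts themselves came from the hosts, which the labels do not describe as treated, and were obtained by removing cells marked with CD45, CD31, CD326 or human CD2 on magnetic columns. The unbound mesenchymal fraction can hold pericytes beside fibroblasts. Whether 2 libraries of a group stand for different mice is not in the labels, and the p-values therefore cover the spread among these 4 libraries, which may be technical; neither the age of the mice nor a batch is given. The deposited values are normalised by the authors and lie on a log2 scale, with read depth unknown.

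Type I interferons bind the receptor chains IFNAR1 and IFNAR2 and activate a complex that includes STAT2 and IRF9, which binds interferon-stimulated response elements. Interferon gamma, the type II interferon, binds IFNGR1 and IFNGR2, and its signal acts through gamma-activated sequences and induces IRF1. The response restricts viruses and intracellular pathogens, and in tumours fibroblasts are among the cells that respond to interferon. Most induced genes answer to both types, so the members were sorted only by leaning: 31 lean to type I, 13 to type II, 4 respond to both and 6 are receptors or constitutive regulators.

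All 4 libraries carried a fibroblast profile, with the 12 fibroblast markers averaging 15.41 and 15.39 (log2) in GSK libraries 1 and 2 and 15.49 and 15.47 in DMSO libraries 1 and 2. Most leukocyte markers were low, with exceptions. The means of the 8 pan-leukocyte genes ran between 4.38 and 4.57 over the libraries. Of these genes 6 reached the filter, and Cd53 stood at 11.03. The filter was reached by 3 of 10 macrophage and monocyte markers, 1 of 7 dendritic cell markers, 2 of 8 T and NK cell markers and 1 of 7 neutrophil markers. The highest of these were Cd3e at 8.62, Csf1r at 8.28, Zbtb46 at 7.87 and Trac at 6.51. Of 9 epithelial and 4T1 markers 4 reached the filter, with Krt19 highest at 8.82. Of 9 endothelial markers 6 reached it, with Flt1 highest at 10.84. The genes for the interferons lay at the bottom of the scale where they were listed. Ifnb1 was at -0.99 and -0.99 in GSK and -0.99 and -0.98 in DMSO, and Ifng was at -1.01 and -1.02 in GSK and -1.01 and -1.02 in DMSO. Transcripts of these ligands were therefore near the lowest deposited value, -1.035, in both groups.

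Fibroblasts from GSK tumours had slightly higher values of most interferon-stimulated genes than fibroblasts from DMSO tumours, and 1 member, Tgtp2, passed the test across all genes. Tgtp2, an immunity-related GTPase, rose 1.37-fold (limma adjusted p = 0.0451). The median change of the 54 members was 0.15 on the log2 scale, or 1.11-fold, against -0.001 for all tested genes. The type II leaning genes had a median of 0.22 (1.17-fold), the 4 genes of both types 0.20, the type I leaning genes 0.15 and the receptors and constitutive regulators 0.03. Tgtp2 was 1 of 54 members past an adjusted p of 0.05 with a higher value, against 0.151% of tested genes, and no member passed with a lower value, against 0.131%.

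At an unadjusted limma p under 0.05, 28 members were higher and 1, Irf1, was lower, where 7.88% of tested genes were higher and 8.13% lower. Both GSK libraries lay above both DMSO libraries in 33 of 54 members, against 24.1% of tested genes, and below them in 1, against 24.5%. Estimates were above 0 for 47 of 54 members and for 49.5% of tested genes. These genes varied together between libraries, and the replicates did not sit level. DMSO library 1 had the lowest value of the 4 libraries in 42 members and GSK library 2 the highest in 36. The median deviation of the members from their own means was 0.054 in GSK library 1, 0.110 in GSK library 2, -0.122 in DMSO library 1 and -0.028 in DMSO library 2.

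**Figure D1:**
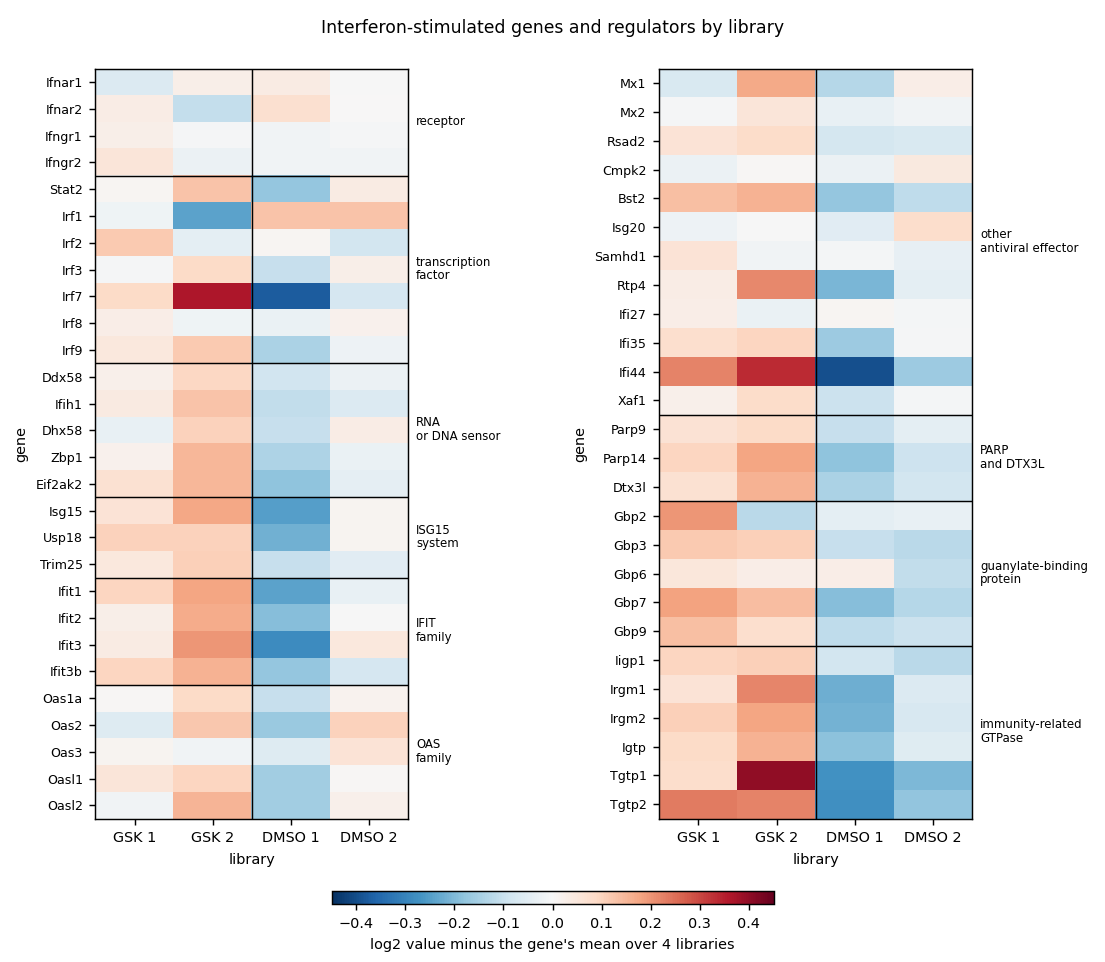
Each cell shows a gene's log2 value in a library minus its mean over the 4 libraries, with the 2 GSK libraries left of the 2 DMSO libraries and genes blocked by role. Most effector genes are red in GSK and blue in DMSO, palest in GSK library 1 and DMSO library 2, while the receptors stay near white and Irf1 runs the other way.

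Without DMSO library 1, 16 members were higher at an unadjusted p under 0.05, of which 15 were among the 28 with all 4 libraries, against 4.37% of tested genes in that fit. Without GSK library 2 there were 17, with 16 of the 28 among them (6.33% of tested genes). There were 28 without GSK library 1 and 31 without DMSO library 2, each with 26 of the 28 (7.92% and 6.64% of tested genes). Of the 47 estimates above 0, 18 were lower by over 1.5 times without DMSO library 1 and 13 without GSK library 2. The median of the type I leaning genes was 0.081 without DMSO library 1 and 0.227 without DMSO library 2, whereas that of the type II leaning genes ran between 0.198 and 0.223 over the 4 fits that left out a library. With each library left out in turn, 40 members kept an estimate above 0 in every fit and 2, Ifnar2 and Irf1, kept one below 0.

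**Figure D2:**
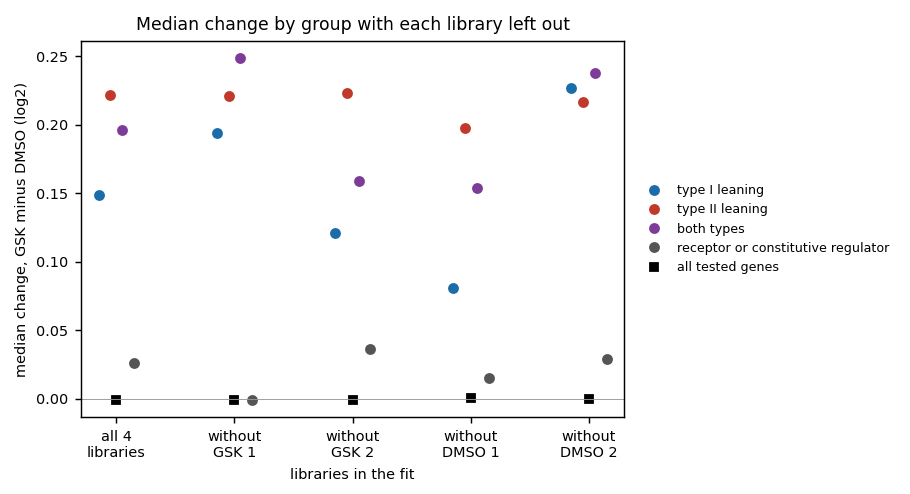
Points give the median change (GSK minus DMSO, log2) of each group of members and of all tested genes, with all 4 libraries and with each left out. The type II leaning genes stay between 0.198 and 0.223, the type I leaning genes move between 0.081 and 0.227, and all tested genes stay near 0.

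None of the markers of pericytes and smooth muscle passed the test, and their median change was 0.215. Of 10 listed, all reached the filter, 6 had both GSK libraries above both DMSO libraries and 2 had both below (24.1% and 24.5% of all tested genes), and their mean was 10.55 and 10.58 in GSK libraries 1 and 2 and 10.28 and 10.50 in DMSO libraries 1 and 2. Their median deviation was lowest in DMSO library 1, at -0.236, against 0.089 and 0.083 in the GSK libraries and 0.017 in DMSO library 2. The part of these cells in the interferon result was not tested, and in bulk RNA fewer cells of a type and less RNA per cell cannot be told apart. Of the 12 fibroblast markers, 1 had both GSK libraries above both DMSO libraries and 4 had both below. Their changes ran from -0.37 to 0.16, with a median of 0.001. Of 4 tested epithelial and 4T1 markers, 3 had both GSK libraries below, and their median was -0.06. The median change was 0.05 over 6 tested pan-leukocyte genes, -0.025 over 3 macrophage and monocyte genes and 0.02 over 6 endothelial genes. Within those lists Cd53, a leukocyte tetraspanin, had 11.81 and 11.15 in GSK and 10.70 and 10.46 in DMSO, and Flt1, an endothelial receptor, had 11.33 and 10.87 in GSK and 10.59 and 10.58 in DMSO, both picked out after their values were seen. Ptprc, which encodes CD45, was at 3.91 and 3.77 in GSK and 3.77 and 3.77 in DMSO, and Pecam1, which encodes CD31, was between 3.30 and 3.34 in every library. The part of leukocytes, endothelial cells and epithelial cells, and of the lower fibroblast markers, was likewise not tested.

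The promoters of the members were searched for the sequences that interferon-activated factors bind. RefSeq windows on GRCm38.p6, from 250 bases before to 50 after the transcription start, matched 41 members. The core of the interferon-stimulated response element, a pair of GAAA blocks with any 2 bases between them, on either strand, was in the windows of 21 of 41 members (51.2%) and of 3.99% of the 27025 genes in the promoter table. The gamma-activated sequence TTCNNNGAA, which reads the same on both strands, was in 17 of 41 (41.5%) and in 9.55% of all genes. The response element core was found in 8 of 10 type II leaning members, 12 of 24 type I leaning members and 1 of 6 receptors or constitutive regulators. The gamma-activated sequence was found in 7 of 10, 7 of 24 and 3 of 6 of the same groups. Of the 30 matches of the response element core, 23 were centred within 150 bases before the start. One of those 30, in Bst2, overlapped a gamma-activated sequence. The 6 windows below were taken in order of limma p from the members with a match that the rule for full statistics selects, which leaves out Tgtp1, and show where the element lies; they are written 5′ to 3′ with capitals at the matches, which read as TTTC blocks where the element lies on the other strand.
Tgtp2 (chr11:49064163-49064462, minus strand): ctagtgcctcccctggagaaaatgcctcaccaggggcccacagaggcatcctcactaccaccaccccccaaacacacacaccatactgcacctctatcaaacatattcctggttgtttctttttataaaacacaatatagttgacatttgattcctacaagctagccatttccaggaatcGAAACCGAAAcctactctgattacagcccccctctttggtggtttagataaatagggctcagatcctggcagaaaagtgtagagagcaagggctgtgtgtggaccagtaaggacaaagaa
Gbp7 (chr3:142530086-142530385, plus strand): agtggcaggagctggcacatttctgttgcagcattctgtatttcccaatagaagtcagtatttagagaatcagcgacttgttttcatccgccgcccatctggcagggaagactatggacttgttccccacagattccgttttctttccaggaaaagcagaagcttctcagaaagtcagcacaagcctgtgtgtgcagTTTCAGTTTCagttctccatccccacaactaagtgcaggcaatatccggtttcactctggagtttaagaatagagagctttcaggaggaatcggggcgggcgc
Bst2 (chr8:71537423-71537722, minus strand): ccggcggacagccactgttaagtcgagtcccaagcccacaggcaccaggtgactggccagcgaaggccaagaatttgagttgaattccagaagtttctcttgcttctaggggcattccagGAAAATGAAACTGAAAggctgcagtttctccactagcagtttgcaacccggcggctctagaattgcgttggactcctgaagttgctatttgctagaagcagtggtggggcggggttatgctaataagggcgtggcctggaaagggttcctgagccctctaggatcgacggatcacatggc
Gbp3 (chr3:142559794-142560093, plus strand): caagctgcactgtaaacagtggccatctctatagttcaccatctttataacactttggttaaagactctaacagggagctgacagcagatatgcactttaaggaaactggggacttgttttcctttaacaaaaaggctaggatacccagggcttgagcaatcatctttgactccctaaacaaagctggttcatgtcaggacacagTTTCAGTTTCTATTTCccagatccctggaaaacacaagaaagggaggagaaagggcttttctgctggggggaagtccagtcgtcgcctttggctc
Irgm2 (chr11:58214727-58215026, plus strand): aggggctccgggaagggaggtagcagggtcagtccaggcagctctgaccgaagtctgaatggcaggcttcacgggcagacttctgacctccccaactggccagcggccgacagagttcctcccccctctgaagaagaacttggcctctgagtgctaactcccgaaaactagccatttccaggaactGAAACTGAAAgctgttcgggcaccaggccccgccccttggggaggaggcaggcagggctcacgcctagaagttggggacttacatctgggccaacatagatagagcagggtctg
Ifit3b (chr19:34607707-34608006, plus strand): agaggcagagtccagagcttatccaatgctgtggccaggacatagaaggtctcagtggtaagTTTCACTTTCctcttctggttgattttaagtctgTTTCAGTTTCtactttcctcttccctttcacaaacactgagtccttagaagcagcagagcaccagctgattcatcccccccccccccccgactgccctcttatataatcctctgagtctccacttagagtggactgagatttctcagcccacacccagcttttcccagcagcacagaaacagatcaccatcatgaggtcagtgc
In Gbp3 and Bst2 a pair of overlapping matches forms one longer run of capitals, and in Ifit3b the matches stand apart. In Tgtp2 and Irgm2 a gamma-activated sequence ends 2 bases before the element. That arrangement, on either strand, was searched after these windows had been seen. It was in 5 of the 27025 genes (0.0185%), namely Tgtp1, Tgtp2, Irgm2, Igtp and the predicted gene Gm12185, which shares 223 bases with Tgtp1. A match is a description of these letters and not a measured binding site.

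**Figure D3:**
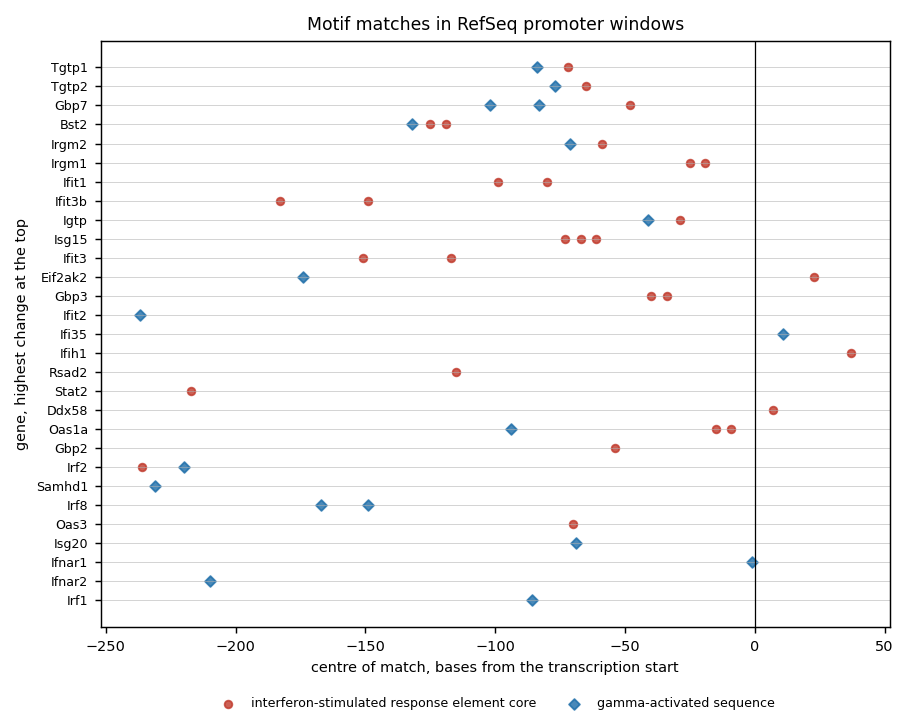
Points mark the centre of each match in bases from the transcription start for the 29 members with either motif, circles for the response element core and diamonds for the gamma-activated sequence, with the highest change at the top. In Tgtp1, Tgtp2, Irgm2 and Igtp a diamond sits just upstream of a circle. One does so in Bst2 as well, where the matches overlap (centres at -132 and -125).

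Members with the element had a median change of 0.23 (21 genes), against 0.09 for the 20 members with a window and no match. These sets differ in role, as 1 of the 6 receptors or constitutive regulators with a window had a match. The highest estimates were split. The near-identical Tgtp1 (0.47) and Tgtp2 (0.46) had a match, and Ifi44 (0.56) and Irf7 (0.45) had none. Both GSK libraries lay above both DMSO libraries in 15 of the 21 and 9 of the 20. The motif alone did not go with such a difference outside the listed genes. The 384 other tested genes with the element had a median change of -0.002, with both GSK libraries above in 24.5%, against -0.001 and 22.1% for the 10084 tested genes with a window that lacked it.

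No receptor gene had groups that did not overlap, where 24.1% of all tested genes had GSK higher without overlap and 24.5% lower. The median change of the 4 receptor genes was -0.009. Ifnar1, which encodes a chain of the type I receptor, was at 10.61 and 10.70 (log2) in GSK and 10.71 and 10.67 in DMSO, a change of -0.04 with a 95% interval from -0.16 to 0.08. Ifnar2, its partner chain, was at 10.85 and 10.71 in GSK and 10.89 and 10.82 in DMSO (change -0.08), with 315 bases of its transcripts identical to Gm21970. The groups overlap for both chains. The interferon gamma receptor genes Ifngr1 and Ifngr2 had estimates of 0.02 and 0.03, with intervals from -0.08 to 0.12 and from -0.08 to 0.14. Ifnar2, Ifnar1 and Ifngr2 lie within 192.8 kb on chromosome 16, where no member had both GSK libraries above both DMSO libraries.

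Of 7 transcription factors, 2 had non-overlapping groups with GSK higher and 1 with GSK lower, near the 24.1% and 24.5% of all tested genes, and none passed the test. Irf7, the inducible amplifier of the type I response, had 10.96 and 11.24 in GSK and 10.50 and 10.80 in DMSO, a change of 0.45 ± 0.12 (SE), or 1.37-fold (limma adjusted p = 0.157). Both GSK values exceed both DMSO values, but the replicates within each group lie far apart. Irf9, the DNA-binding partner of STAT2, had 10.08 and 10.15 in GSK and 9.89 and 10.01 in DMSO, a change of 0.17 ± 0.06 (adjusted p = 0.223). Stat2 had 11.74 and 11.86 in GSK and 11.56 and 11.77 in DMSO, and these groups overlap (change 0.13 ± 0.08, adjusted p = 0.478; 0.03 without DMSO library 1).

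Irf1, which encodes an activator induced strongly by interferon gamma, went the other way. It had 13.03 and 12.81 in GSK and 13.18 and 13.18 in DMSO, a change of -0.26 ± 0.08 (0.83-fold, adjusted p = 0.185). The DMSO libraries are level and the GSK libraries differ from each other by more than the higher of them differs from DMSO. Irf8, a factor best known from myeloid cells, had 8.30 and 8.25 in GSK and 8.24 and 8.29 in DMSO, with overlapping groups and a change of 0.01 (95% interval from -0.10 to 0.13). Irf2, a repressor of interferon genes, and Irf3, the constitutive factor activated by nucleic acid sensing, had estimates of 0.07 and 0.08.

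**Figure D4:**
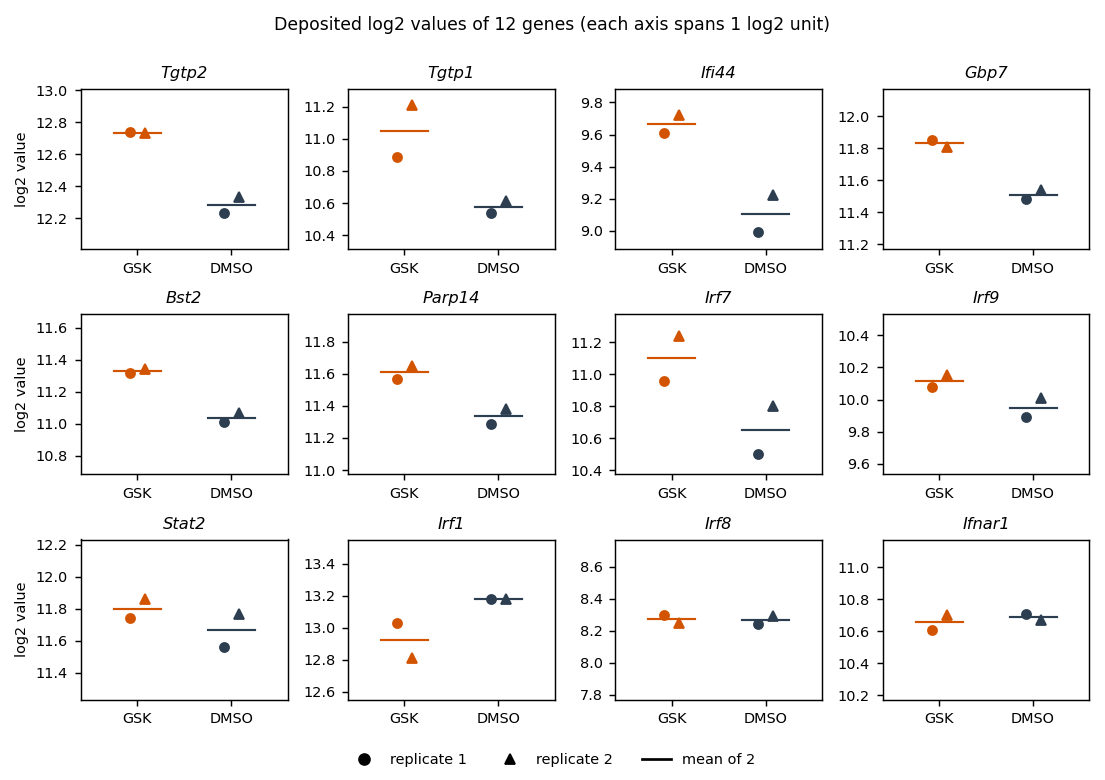
Points are the deposited log2 values of 12 genes in each library (circles for replicate 1, triangles for replicate 2), with bars at the mean of the 2 libraries and every axis spanning 1 log2 unit. GSK libraries lie above DMSO libraries without overlap for Tgtp2, Tgtp1, Ifi44, Gbp7, Bst2, Parp14, Irf7 and Irf9, below them for Irf1, and overlap them for Stat2, Irf8 and Ifnar1.

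The immunity-related GTPases, which act against intracellular pathogens within the infected cell, had the highest median change of the roles. All 6 had both GSK libraries above both DMSO libraries, against 24.1% of all tested genes, though Tgtp1 and Tgtp2 are near-identical. The median was 0.28, and only Tgtp2 passed the test. Tgtp2 (ENSMUSG00000078921, chromosome 11) had 12.74 and 12.73 in GSK and 12.23 and 12.33 in DMSO, a change of 0.46 ± 0.05 (95% interval from 0.33 to 0.59). The GSK libraries are level and lie well above both DMSO libraries. Its call missed the threshold without DMSO library 1 (adjusted p = 0.158), without GSK library 1 (0.0603) and without GSK library 2 (0.0877). It also missed it with no filter (0.222), after quantile normalisation (0.0634) and with a variance prior without trend (0.0634).

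Tgtp1, its neighbour, had 10.89 and 11.21 in GSK and 10.54 and 10.61 in DMSO, a change of 0.47 ± 0.10 (adjusted p = 0.106). Transcripts of the pair match over 2811 bases at 99.75% identity. Since the counting may have split their reads, each value is uncertain. Summed on the linear scale they had 13.09 and 13.16 in GSK and 12.62 and 12.71 in DMSO, a change of 0.46 (adjusted p = 0.0541), which lies between the changes of the 2 genes and just misses the threshold. Irgm2, a regulator of these GTPases, had 11.66 and 11.73 in GSK and 11.34 and 11.48 in DMSO (change 0.285 ± 0.061, adjusted p = 0.106). Irgm1 and Igtp, of the same regulatory class, had estimates of 0.28 and 0.245 and Iigp1, which attacks the vacuoles of parasites, 0.20, with adjusted p between 0.136 and 0.168. Irgm1, Tgtp1 and Tgtp2 lie within 202.2 kb on chromosome 11 (GRCm38, 48861968 to 49064206) and had the highest median of the member clusters, 0.46. That median is set by the near-identical pair, as Irgm1 had 0.28.

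Guanylate-binding proteins are large GTPases that assemble on pathogen membranes. Of the 5 among the members, 4 had non-overlapping groups with GSK higher, against 24.1% of all tested genes, and none passed the test. Gbp7 had 11.85 and 11.81 in GSK and 11.48 and 11.54 in DMSO, a change of 0.32 ± 0.05, or 1.25-fold (adjusted p = 0.0578). Gbp3 had 11.28 and 11.27 in GSK and 11.06 and 11.04 in DMSO, a change of 0.22 ± 0.04 (adjusted p = 0.0808). Replicates of these genes were close together and the groups well apart. Gbp9 had an estimate of 0.21 (adjusted p = 0.106), Gbp6 0.08 and Gbp2 0.07. Gbp2 had 12.02 and 11.70 in GSK and 11.78 and 11.79 in DMSO, so that its GSK libraries lay on either side of DMSO. Genes of the family outside the members went both ways. Gbp4 and Gbp8 had estimates of 0.21 and 0.03, and Gbp2b, Gbp5 and Gbp11 had -0.03, -0.08 and -0.045. Gbp10 had -0.14, with both GSK libraries below both DMSO libraries. Gbp6 is uncertain, because its transcript matches Gm43302 over 3923 bases at 99.85% identity and Gbp10 over 3131 bases at 99.17%. So is Gbp7, which shares 637 identical bases with Gm43802.

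**Figure D5:**
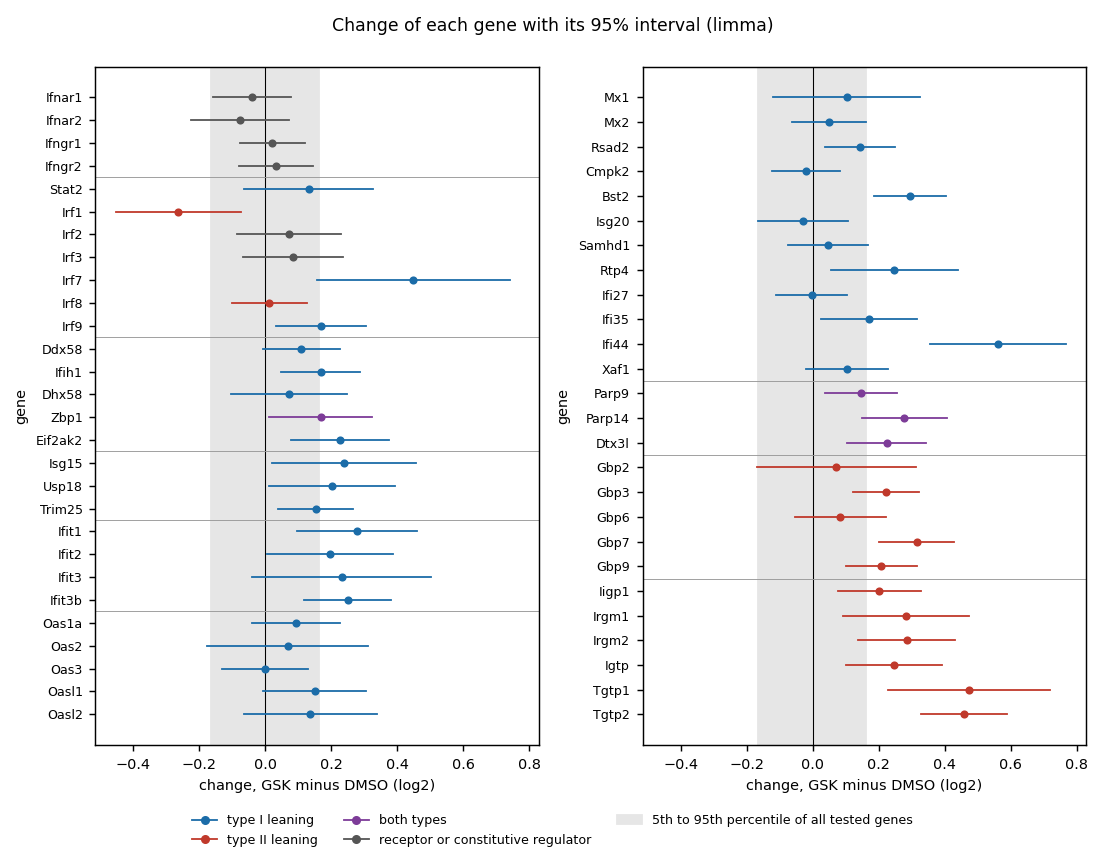
Points give each member's change (GSK minus DMSO, log2) with its 95% limma interval, coloured by leaning, over a grey band from the 5th to the 95th percentile of all tested genes (-0.165 to 0.163). Ifi44, Tgtp1, Tgtp2 and Irf7 lie farthest right and Irf1 is the only member left of the band.

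The antiviral effectors were led by Ifi44, a cytoplasmic protein of the type I response. It had 9.61 and 9.72 in GSK and 8.99 and 9.22 in DMSO, a change of 0.56 ± 0.085, or 1.48-fold (adjusted p = 0.0583), the highest estimate of any member. Bst2, tetherin, which holds budding virus at the cell surface, had 11.32 and 11.34 in GSK and 11.01 and 11.07 in DMSO (change 0.29 ± 0.045, adjusted p = 0.0583). Both genes have groups well apart and lie just outside the threshold. Of the other 10 genes of this group, Rtp4 had an estimate of 0.25, Ifi35 0.17 and Rsad2, viperin, 0.14, each with an unadjusted p under 0.05. Rtp4 shares 296 identical bases with Gm45338, so its value is uncertain. Mx1 and Mx2, of a family of dynamin-like GTPases, had estimates of 0.10 and 0.05. Mx2 is annotated as a polymorphic pseudogene, and whether either gene makes a working protein here was not tested. Xaf1 had an estimate of 0.10 and Samhd1, which depletes nucleotides, 0.05. Isg20, Cmpk2 and Ifi27 had estimates of -0.03, -0.02 and -0.003, and their groups overlap.

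The IFIT genes, whose products bind foreign RNA, lie together within 99.3 kb on chromosome 19. Ifit1 had 9.42 and 9.50 in GSK and 9.08 and 9.29 in DMSO, a change of 0.28 ± 0.08 (adjusted p = 0.157), or 0.17 without DMSO library 1. Ifit3b had 7.70 and 7.76 in GSK and 7.43 and 7.53 in DMSO (change 0.25 ± 0.055, adjusted p = 0.113). Ifit3 and Ifit2 had estimates of 0.23 and 0.20, and the groups overlap for Ifit3. The oligoadenylate synthase family, some members of which make the activator of the antiviral ribonuclease RNase L, had a median of 0.09. Oasl1 had 7.86 and 7.90 in GSK and 7.65 and 7.81 in DMSO (change 0.15, adjusted p = 0.330), and Oas1a had 9.85 and 9.93 in GSK and 9.74 and 9.86 in DMSO (change 0.09, adjusted p = 0.463). The other 3, Oasl2, Oas2 and Oas3, had estimates of 0.14, 0.07 and -0.002, and none of the 5 reached an unadjusted p of 0.05.

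None of the 3 genes of the ISG15 modifier system passed the test, and their estimates ran from 0.15 to 0.24. Isg15, the ubiquitin-like modifier, had 10.68 and 10.79 in GSK and 10.37 and 10.63 in DMSO, a change of 0.24 ± 0.09 (adjusted p = 0.271), which was 0.11 without DMSO library 1. Trim25, a ligase that acts in sensing by RIG-I, had 10.48 and 10.54 in GSK and 10.33 and 10.38 in DMSO (change 0.15, adjusted p = 0.193), and Usp18, which removes ISG15 and damps receptor signalling, had an estimate of 0.20, or 0.08 without DMSO library 1. All 3 have non-overlapping groups with GSK higher, against 24.1% of all tested genes. Among the sensors, Eif2ak2, the kinase PKR, had 10.10 and 10.18 in GSK and 9.85 and 9.99 in DMSO (change 0.23 ± 0.06, adjusted p = 0.157), and Ifih1, the RNA sensor MDA5, averaged 9.95 ± 0.065 in GSK and 9.78 ± 0.032 in DMSO (SD of 2 libraries each; change 0.17, limma adjusted p = 0.185). Zbp1 had an estimate of 0.17, Ddx58, which encodes RIG-I, 0.11 and Dhx58 0.07. The groups overlap for Dhx58 alone of the 5, and the other 4 have GSK higher, against 24.1% of all tested genes.

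Parp14, Dtx3l and Parp9, which encode ADP-ribosyltransferases and a ubiquitin ligase that partners them, form a cluster of 139.7 kb on chromosome 16. Parp14 had 11.57 and 11.65 in GSK and 11.29 and 11.38 in DMSO, a change of 0.28 ± 0.05 (adjusted p = 0.0873). Dtx3l had 10.77 and 10.86 in GSK and 10.56 and 10.62 in DMSO (change 0.22 ± 0.05, adjusted p = 0.113), and Parp9, whose annotated start lies 681 bases from that of Dtx3l, had an estimate of 0.145. All 3 have both GSK libraries above both DMSO libraries, against 24.1% of all tested genes.

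Levels can be set side by side between genes only per length. On the log2 scale, with the log2 of the merged exon length in kilobases subtracted from the mean over the 4 libraries, Bst2 stood highest of the members at 11.33, before Irf1 at 11.06, Isg15 at 11.02, Tgtp2 at 10.95 and Iigp1 at 10.89. The lowest were Oas3 at 3.98 and Cmpk2 at 4.08. The interferon receptor genes lay between 8.10 and 9.08.

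Other genes of the pathway, from lists that leave out the 54 members, were read in the same fit. None of the 51 tested genes of the list of other interferon-induced genes passed in limma over all genes, while 20 were higher and 4 lower at an unadjusted p under 0.05, against 7.88% and 8.13% of all tested genes. Their median change was 0.08, and 29 had both GSK libraries above both DMSO libraries, 7 both below, against 24.1% and 24.5% of all tested genes. Ifi47, an immunity-related GTPase, was at 11.11 and 11.12 in GSK and 10.80 and 10.90 in DMSO (change 0.26 ± 0.05, adjusted p = 0.0863), and Trim30a had an estimate of 0.24 (adjusted p = 0.105).

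None of 17 tested signal transducers and brakes passed, with 2 higher and 4 lower at an unadjusted p under 0.05 (7.88% and 8.13% of all tested genes) and a median of 0.01. Socs3, an inducible brake singled out for its low estimate, had 12.95 and 12.49 in GSK and 13.26 and 13.03 in DMSO (change -0.43 ± 0.15, adjusted p = 0.25). Irf4, of the interferon regulatory factor family, had an estimate of -0.105 (limma adjusted p = 0.178). None of 19 tested sensors and adaptors passed, with 2 higher and 1 lower at an unadjusted p under 0.05, near the 7.88% and 8.13% of all tested genes, and a median of 0.02. Ifi205, of the interferon-inducible p200 family, had 10.30 and 10.16 in GSK and 10.71 and 10.60 in DMSO, a change of -0.43 ± 0.07 (adjusted p = 0.0583), and its groups do not overlap, with GSK lower. Trim56 had an estimate of 0.215 (adjusted p = 0.111).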

How the data were processed

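RNA of the mesenchymal fraction of 4T1 tumours was sequenced in 2 GSK and 2 DMSO libraries, grouped by the sample titles. The authors deposited normalised values on a log2 scale for 22456 Ensembl genes, from -1.035 to 20.58. Tools listed without roles in the submitters' processing notes are DESeq2 1.12.4, RSEM 1.2.29 and Bowtie2, with builds GRCh38 and mm10. How the values were transformed is not stated there. The values spread less where they are low, with a median range over the 4 libraries of 0.113 for tested genes and 0.0178 below the filter, so changes on this scale may understate those of low genes.

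GENCODE M21 (GRCm38) symbols matched 22335 identifiers. Genes whose mean reached the log2 of 10 were fitted with limma 3.58.1 in R 4.3.3, group only, with the variance prior following the mean, no pseudocount, two-sided p-values and Benjamini-Hochberg adjustment over 14551 genes at 0.05. SE is limma's moderated standard error. The fit was tested on simulated data. Near-identical transcripts were found with blastn 2.17.0 (at least 98% identity over 200 bases). Alternatives were other filters, quantile normalisation, median centring, other variance priors, a replicate block and each library left out; summing near-identical genes was added after seeing the data.

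The members and lists were chosen with earlier results of these data known. The rule for full statistics took the receptors, Stat2, Irf1, Irf7, Irf8, Irf9 and any member past the threshold. It also took the 2 members with the smallest p in each other role, and the 2 such genes in each other pathway list. For some of these genes, such as the receptors, only part of the statistics is printed. One gene that this rule names is not reported here. Tgtp1, Gbp2, Socs3, Cd53 and Flt1 were given per library after their values were seen.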

Additional observations from a re-analysis of the deposited data

How the results depend on the processing

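Only 4 libraries limit every count, and read depth is unknown. Of 14551 genes, 41 passed in the reported fit; 1 of 22456 passed with no filter, 23 after quantile normalisation, 107 with median centring, 11 without the variance trend, 139 with a robust prior, and 7 to 205 with a library left out. Of the members, 1 passed; 0 passed with no filter, after quantile normalisation, without trend or with near-identical genes summed, 2 with median centring, 3 with a robust prior, and 0 to 2 with a library left out. The cause was not tested, except that summing removes Tgtp2 as a separate gene. Same-numbered libraries of the groups deviated together (correlation 0.428), but 2 pairs do not establish a pairing; with the replicate number as a block, 1375 genes and 27 members (26 higher and Irf1 lower) passed.

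The median change of all members ran from 0.104 to 0.209 with a library left out. That of the type II leaning genes was 0.251 after quantile normalisation and 0.198 to 0.223 with a library left out, and that of the receptors and constitutive regulators -0.001 to 0.036, below 0 without GSK library 1. Among the members that the rule for full statistics took, Ifnar1, Ifngr2 and Irf8 changed sign with a library left out. The change ran from -0.086 to 0.006 for Ifnar1 and from -0.009 to 0.073 for Ifngr2, crossing 0 without GSK library 1. For Irf8 it ran from -0.013 to 0.037, below 0 without GSK library 1 (-0.013) and without DMSO library 1 (-0.011). Dhx58, Gbp2, Irf2, Mx1 and Oas2, of the other members, fell below 0 with some library left out. Oas3, Isg20, Cmpk2 and Ifi27 rose above it. Gbp2 ran from -0.087 without GSK library 1 to 0.230 without GSK library 2. Oas2 ran from -0.070 without DMSO library 1 to 0.204 without DMSO library 2.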
